A study of Mus musculus with 20 samples.

Results

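The polyamine genes Odc1, Smox, Amd1, Sat1 and Oaz1 were examined through every probe set that the array's annotation assigns to one of these symbols alone. These were 6 of the 10748 probe sets of the table (4 of 6603 genes): 3 for Odc1 and 1 each for Smox, Sat1 and Oaz1. Amd1, the other of the 5 genes, is named only. The 20 Affymetrix arrays held RNA of muscle from female C57BL/6 mice aged 14 weeks, 4 arrays in each of 5 groups. Mice transgenic for human mutant SOD1 (SOD1G93A, called SOD1 here), a model of amyotrophic lateral sclerosis at its symptomatic stage, gave gastrocnemius, from the calf, and triceps, from the fore limb. A further group was gastrocnemius of mice whose sciatic nerve was compressed with forceps for 30 s at 12 weeks of age, 2 weeks before the muscle was taken, and which served as a control for denervation. Non-transgenic (NTg) mice gave the same 2 muscles. The sources used here give neither the genotype of the crushed mice nor the promoter of the transgene, and no sham-operated group was analysed. Values are log2 MAS5 signals, and changes are differences of group means of these signals.

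Polyamines (putrescine, spermidine and spermine) are small positively charged molecules that bind nucleic acids and are needed for cell growth and translation. Odc1, ornithine decarboxylase, makes putrescine from ornithine and is a rate-limiting enzyme of the pathway, and Amd1, S-adenosylmethionine decarboxylase, supplies the aminopropyl groups for spermidine and spermine. Smox, spermine oxidase, turns spermine back into spermidine with release of hydrogen peroxide, Sat1 acetylates spermidine and spermine for export or breakdown, and Oaz1, antizyme, directs the Odc1 protein to the proteasome. Skeletal muscle expresses Smox strongly in the mouse, and the gene is known to fall in muscle that loses its nerve or wastes. Myc and Max are known to act on Odc1 through CACGTG motifs (E-boxes) of its intron, outside the stretch printed here, and the myogenic factors, Myog among them, bind motifs of the wider form CANNTG.

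The stretches before the start sites of the genes whose signals differed in SOD1 gastrocnemius are printed because Odc1 and Sat1 were higher there and Smox was lower. Each is 250 bases of RefSeq sequence (build GRCm38.p6), 5′ to 3′ on the gene's own strand. It ends at the base before the start used for the promoter window, with any CANNTG in capitals. Odc1 lies on the plus strand at chr12:17544623-17544872, Smox on the plus strand at chr2:131491612-131491861, and Sat1 on the minus strand at chrX:155216450-155216699. The listed spans of the Odc1 and Smox genes begin before these starts, at chr12:17544808 and chr2:131491858. The last bases of the Odc1 and Smox stretches therefore lie inside the listed genes.
Odc1: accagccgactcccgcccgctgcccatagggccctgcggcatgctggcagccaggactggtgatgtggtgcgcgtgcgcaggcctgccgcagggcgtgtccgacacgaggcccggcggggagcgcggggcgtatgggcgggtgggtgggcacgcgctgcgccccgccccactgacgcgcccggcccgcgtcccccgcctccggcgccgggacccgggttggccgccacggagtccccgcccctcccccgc
Smox: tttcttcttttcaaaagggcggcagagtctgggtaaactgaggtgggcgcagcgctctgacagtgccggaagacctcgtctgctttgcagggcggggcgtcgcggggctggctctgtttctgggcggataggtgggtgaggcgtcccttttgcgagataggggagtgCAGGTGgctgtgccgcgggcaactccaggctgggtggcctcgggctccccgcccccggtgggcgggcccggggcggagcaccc
Sat1: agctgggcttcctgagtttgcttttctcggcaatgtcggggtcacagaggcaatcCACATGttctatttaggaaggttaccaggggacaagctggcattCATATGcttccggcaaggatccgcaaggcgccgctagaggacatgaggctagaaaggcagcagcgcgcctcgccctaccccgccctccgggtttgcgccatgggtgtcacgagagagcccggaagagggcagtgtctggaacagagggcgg

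Both strands of 300 bases, from 250 before to 50 after the start, were searched for CACGTG and for CANNTG, of which CACGTG is one form. The window of Odc1 held neither. That of Smox held 1 CANNTG, with its first base 83 bases before the start (position -83), and that of Sat1 held 2, at -195 and -151. The windows of Amd1 and Oaz1 held 1 each, and CACGTG was in none of the 5. Over 32851 promoters of the same length, 72.3% held CANNTG and 7.15% held CACGTG. The G and C content was 78.0% in the window of Odc1, 71.0% in that of Smox and 60.3% in that of Sat1. These matches describe letters in a window and say nothing of binding.

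All 6 member probe sets passed the filter, which left out the lowest 30% of probe sets by mean over the arrays and kept 7523. Array medians ran from 6.61 to 6.76. Crush replicate 4 stood apart: its mean correlation across probe sets with its own group was 0.905, against 0.927 to 0.978 for the other arrays, so results are also given without it. The summed signal of denervated-muscle markers was higher in every SOD1 and crushed array than in any NTg array. The summed linear signal of 7 such genes was 1473 to 4882 in SOD1 gastrocnemius, 895 to 5923.5 in SOD1 triceps, 466 to 6842 in crushed gastrocnemius, 320.4 to 386 in NTg gastrocnemius and 291 to 381 in NTg triceps, and crush replicate 4 gave the highest value of all. Chrna1, a subunit of the acetylcholine receptor of muscle, had log2 signals of 6.97, 7.28, 7.40 and 11.34 in crushed gastrocnemius, against 6.55, 6.24, 6.81 and 6.20 in NTg gastrocnemius. Of the 2 probe sets for mouse Sod1, the brighter had 11.09 ± 0.16 (SD, n = 4) in SOD1 and 10.69 ± 0.17 in NTg gastrocnemius, with all 4 SOD1 arrays above all NTg arrays, but was not called (limma, adjusted p = 0.172). The dim one, which the filter left out, had 5.58 ± 0.24 in SOD1 and 5.63 ± 0.20 in NTg gastrocnemius. Both are assigned to the mouse gene, so they do not check the human transgene.

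In gastrocnemius of SOD1 mice, 5 of the 6 member probe sets differed from NTg (limma, Benjamini-Hochberg adjusted p under 0.05): all 3 of Odc1 and that of Sat1 rose, and that of Smox fell. Of all tested probe sets, 12.0% were called in this comparison, 5.97% as higher and 6.02% as lower. In SOD1 triceps 1 member probe set, of Odc1, was called as higher, against 0.239% of all tested. In crushed gastrocnemius the Smox probe set was called as lower, and none as higher, against 3.06% of all tested called as lower and 4.13% in either direction.

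**Figure D1:**
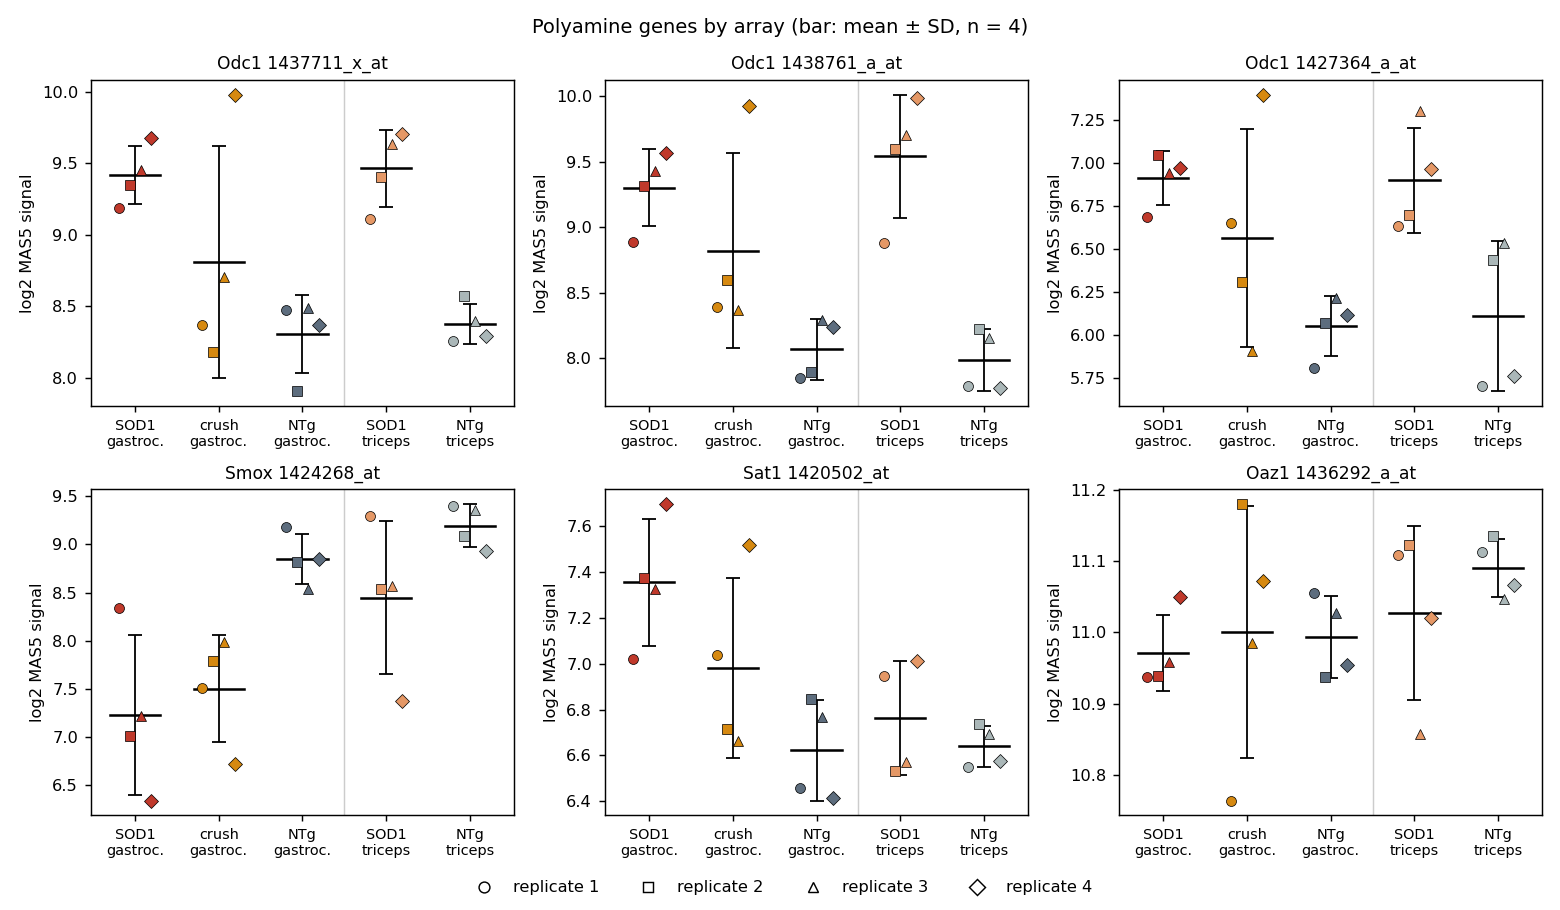
Log2 MAS5 signal (vertical axis, a scale for each panel) of the 6 member probe sets on each of 20 arrays, by group, with the replicate as the symbol and bars for mean ± SD (n = 4). The 3 Odc1 probe sets are high in both SOD1 groups and in crush replicate 4, Smox is lowest in SOD1 and crushed gastrocnemius, and Oaz1 lies between 10.76 and 11.18 throughout.

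Odc1 was the member whose arrays stood above NTg in both SOD1 muscles, and its probe sets are given singly. Probe set 1437711_x_at had 9.19, 9.35, 9.45 and 9.68 in SOD1 gastrocnemius, 8.37, 8.18, 8.70 and 9.98 in crushed gastrocnemius, and 8.47, 7.91, 8.48 and 8.37 in NTg gastrocnemius. In triceps it had 9.11, 9.41, 9.63 and 9.71 in SOD1 mice and 8.26, 8.57, 8.40 and 8.29 in NTg mice. Each SOD1 array was above every NTg array of its muscle, which was so for 12.7% of all tested probe sets in gastrocnemius and 4.69% in triceps, while of the crushed muscles replicate 3 and above all replicate 4 were above NTg. The probe set rose 2.16-fold in SOD1 gastrocnemius (log2 change 1.11, SE 0.27, 95% interval 0.55 to 1.67, adjusted p = 0.0145). In triceps the log2 change was 1.09 (SE 0.27, interval 0.53 to 1.64), with an adjusted p of 0.0955, although the groups did not overlap. The triceps difference was called at the same size without crush replicate 4 in the shared estimate of spread (adjusted p = 0.00069). It was also called with the triceps arrays alone (0.0141), with a replicate block (0.0346) and, at 0.98, with array weights (0.0367). It stayed uncalled in 8 of 9 omissions of 1 array (adjusted p up to 0.353) and under 6 of 9 alternatives (up to 0.124). After crush the log2 change was 0.50 (interval -0.06 to 1.06, adjusted p = 0.295), and 0.11 without crush replicate 4 (adjusted p = 0.784). The gastrocnemius call was lost without SOD1 replicate 4 (1.02, adjusted p = 0.0631) and without NTg replicate 2 (0.97, adjusted p = 0.0503).

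Probe set 1438761_a_at had 8.89, 9.32, 9.43 and 9.57 in SOD1 gastrocnemius, 8.39, 8.59, 8.37 and 9.93 in crushed gastrocnemius, and 7.85, 7.89, 8.29 and 8.24 in NTg gastrocnemius. The triceps values were 8.88, 9.60, 9.70 and 9.99 in SOD1 mice and 7.79, 8.22, 8.15 and 7.77 in NTg mice. No SOD1 or crushed array overlapped the NTg arrays of its muscle (6.94% of all tested probe sets were above NTg in this way after crush), but crush replicates 1 to 3 were close to the highest NTg value. It rose 2.35-fold in SOD1 gastrocnemius (log2 change 1.23, SE 0.28, adjusted p = 0.0112) and 2.95-fold in SOD1 triceps (1.56, SE 0.28, adjusted p = 0.0211). After crush the log2 change was 0.75 (SE 0.28, interval 0.17 to 1.34, adjusted p = 0.131), and 0.38 without crush replicate 4 (adjusted p = 0.309). The triceps call was lost without SOD1 triceps replicate 2 (1.54, adjusted p = 0.0521) or replicate 4 (1.41, adjusted p = 0.126). It was also lost without NTg triceps replicate 3 (1.61, adjusted p = 0.0636). The gastrocnemius call was lost without SOD1 replicate 4 (1.14, adjusted p = 0.0539).

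Probe set 1427364_a_at was the dimmest of the Odc1 probe sets. It had 6.69, 7.05, 6.94 and 6.97 in SOD1 gastrocnemius, 6.65, 6.31, 5.91 and 7.40 in crushed gastrocnemius, and 5.81, 6.07, 6.22 and 6.12 in NTg gastrocnemius. Its triceps values were 6.64, 6.70, 7.31 and 6.96 in SOD1 mice and 5.71, 6.44, 6.54 and 5.77 in NTg mice. Again the SOD1 and NTg arrays of each muscle did not overlap, while crush replicate 3 fell inside the NTg range. The rise in SOD1 gastrocnemius was 1.81-fold (log2 change 0.86, SE 0.25, adjusted p = 0.0338), and the log2 change was 0.79 in SOD1 triceps (SE 0.25, adjusted p = 0.188) and 0.51 after crush (SE 0.25, adjusted p = 0.258). Without crush replicate 4 the crush change was 0.23 (adjusted p = 0.606), and the triceps change, at the same size, was called (adjusted p = 0.0495). In 8 of 9 omissions the triceps change was not called (adjusted p up to 0.501). Leaving out SOD1 replicate 2, 3 or 4 or any NTg replicate ended the gastrocnemius call: the change then stayed between 0.77 and 0.91, with adjusted p from 0.0562 to 0.0996.

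Whether the Odc1 probe sets moved by the same amount was examined in contrasts chosen after these values were seen, and none of the 9 passed. Between SOD1 and NTg muscles, the change of 1438761_a_at minus that of 1427364_a_at was 0.38 on the log2 scale in gastrocnemius and 0.77 in triceps, and the change of 1437711_x_at minus that of 1438761_a_at was -0.47 in triceps. Each of these 3 had an exact permutation p of 0.0286 (two-sided), the smallest that 4 against 4 arrays allow, and 0.0857 after adjustment over the 9 contrasts. With only 3 contrasts at this smallest value none could pass. The lack of a call therefore does not show that the probe sets moved by the same amount. After crush the lowest adjusted p was 0.343.

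**Figure D2:**
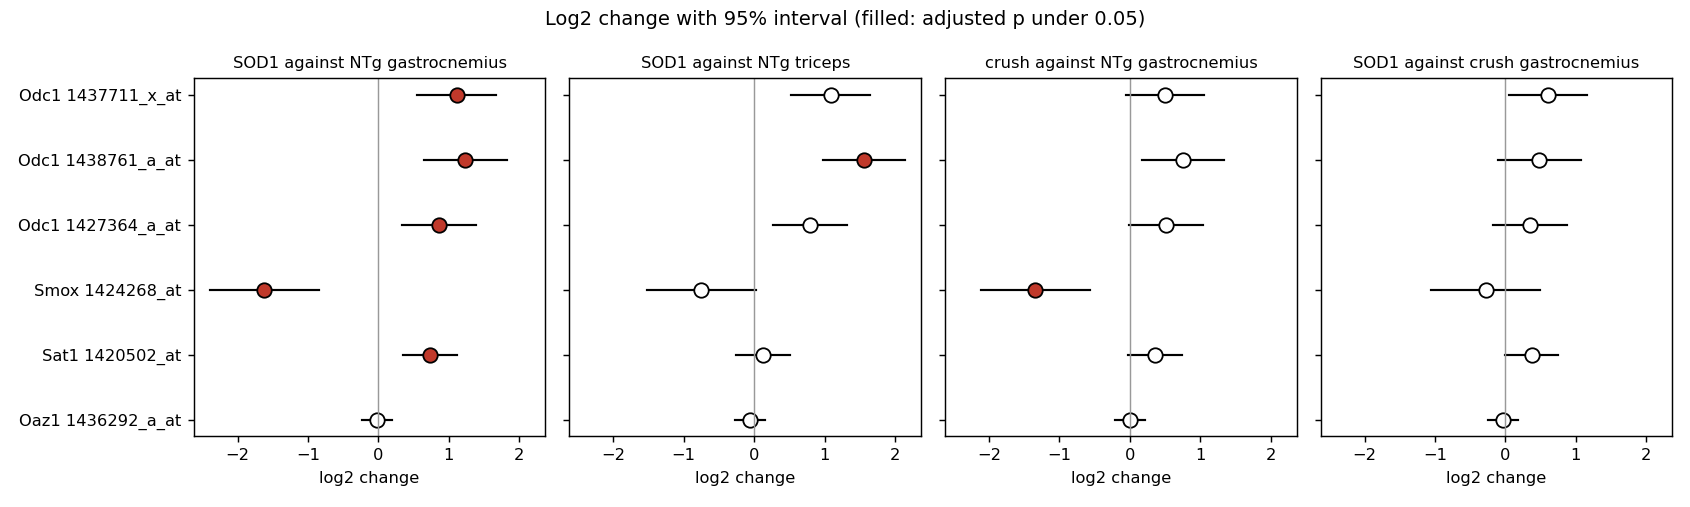
Log2 change with its 95% interval for the 6 member probe sets (rows) in SOD1 against NTg gastrocnemius, SOD1 against NTg triceps, crush against NTg gastrocnemius and SOD1 against crush gastrocnemius (panels), filled where the adjusted p was under 0.05. The points of all 3 Odc1 probe sets lie right of 0 in every panel. Their intervals reach 0 for 1437711_x_at and 1427364_a_at after crush, and for 1438761_a_at and 1427364_a_at in SOD1 against crush. Smox lies left of 0 with intervals that reach it in triceps and against crush, and the Oaz1 intervals stay within 0.28 of 0.

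Smox, spermine oxidase, moved the other way. Its probe set 1424268_at had 8.34, 7.01, 7.22 and 6.34 in SOD1 gastrocnemius, 7.51, 7.79, 7.99 and 6.72 in crushed gastrocnemius, and 9.18, 8.82, 8.54 and 8.85 in NTg gastrocnemius. Triceps had 9.29, 8.54, 8.57 and 7.38 in SOD1 mice and 9.40, 9.09, 9.36 and 8.94 in NTg mice. Every SOD1 and every crushed gastrocnemius lay below every NTg gastrocnemius, as did 13.3% and 9.44% of all tested probe sets, while SOD1 triceps replicate 1 lay inside the NTg triceps range. The SOD1 gastrocnemius group was the most spread, with an SD of 0.83 against 0.26 in NTg.

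In SOD1 gastrocnemius Smox was 3.08-fold lower (log2 change -1.62, SE 0.37, 95% interval -2.40 to -0.85, adjusted p = 0.0112). After nerve crush it was 2.54-fold lower (log2 change -1.34, SE 0.37, interval -2.12 to -0.57, adjusted p = 0.0453). This is the only call among the members after crush, and it rests near the threshold. It was lost without any 1 of crush replicates 1, 2 and 4 or of the 4 NTg replicates, with changes of -1.08 to -1.45 and adjusted p of 0.0717 to 0.112, and it held without crush replicate 3. Without crush replicate 4, whose denervation markers were highest, the change was -1.08 (adjusted p = 0.0943), so Smox was lower in the other 3 crushed muscles too, each below every NTg value. In triceps the log2 change was -0.75 (interval -1.52 to 0.02, adjusted p = 0.336). The SOD1 gastrocnemius call was lost without SOD1 replicate 4 (-1.33, adjusted p = 0.0590).

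Within groups, the array with the highest Odc1 signal was also the array with the lowest Smox signal in 4 of the 5 groups by 1438761_a_at or 1437711_x_at, but in 2 of 5, crushed and NTg gastrocnemius, by 1427364_a_at. By the brighter pair of probe sets it was replicate 4 in SOD1 gastrocnemius, SOD1 triceps and crushed gastrocnemius and replicate 3 in NTg gastrocnemius. In NTg triceps Odc1 was highest in replicate 2 and Smox lowest in replicate 4. The crushed muscles show how far the pair can part: replicates 1 to 3 had Smox at 7.51 to 7.99, below all NTg arrays, with Odc1 1438761_a_at at 8.37 to 8.59, close to the NTg arrays.

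**Figure D3:**
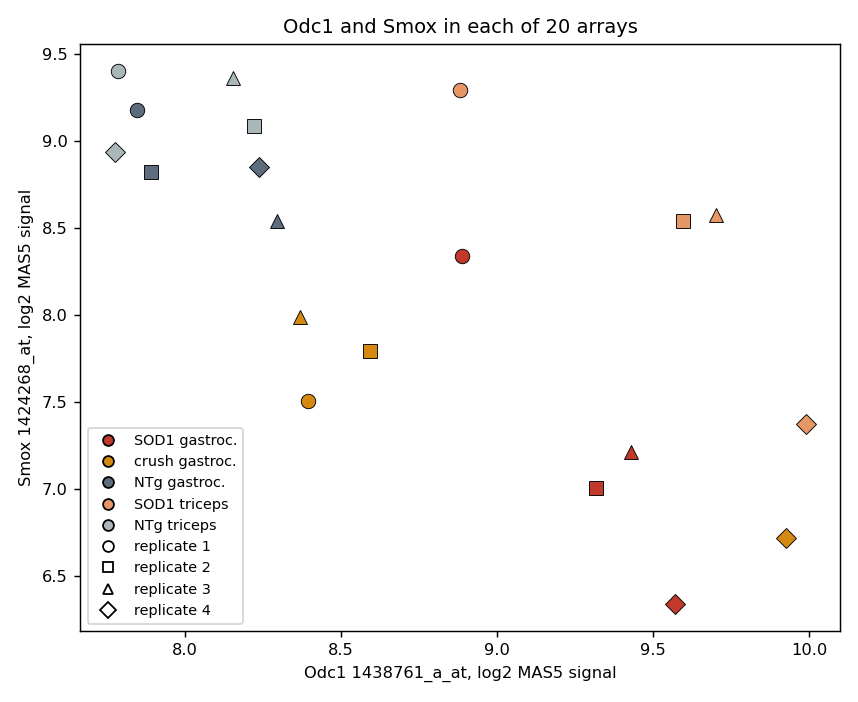
Log2 signal of Smox 1424268_at (vertical axis) against that of Odc1 1438761_a_at (horizontal axis) on each of the 20 arrays, with the group as the colour and the replicate as the symbol. The replicate 4 arrays of SOD1 gastrocnemius, SOD1 triceps and crushed gastrocnemius lie at the lower right, with Odc1 between 9.57 and 9.99 and Smox between 6.34 and 7.38.

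Sat1, the acetyltransferase, rose in SOD1 gastrocnemius. Its probe set 1420502_at had 7.02, 7.37, 7.33 and 7.70 in SOD1 gastrocnemius, 7.04, 6.72, 6.66 and 7.52 in crushed gastrocnemius, and 6.46, 6.85, 6.77 and 6.41 in NTg gastrocnemius. In triceps it had 6.95, 6.53, 6.57 and 7.01 in SOD1 mice and 6.55, 6.74, 6.70 and 6.57 in NTg mice. All SOD1 gastrocnemius arrays were above all NTg ones, and the crushed and the SOD1 triceps arrays overlapped NTg. The rise was 1.66-fold (log2 change 0.73, SE 0.18, adjusted p = 0.0171), and the call was lost without SOD1 replicate 4 (0.62, adjusted p = 0.0808), NTg replicate 1 (0.68, adjusted p = 0.0512) or NTg replicate 4 (0.66, adjusted p = 0.0569). The log2 change was 0.13 in SOD1 triceps (interval -0.26 to 0.51, adjusted p = 0.75) and 0.36 after crush (interval -0.02 to 0.74, adjusted p = 0.269), and 0.18 after crush without crush replicate 4 (adjusted p = 0.594).

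Macrophage markers were also higher in SOD1 gastrocnemius. Of 8 tested macrophage genes, 6 were called as higher there, against 5.97% of all tested probe sets, and none was called in SOD1 triceps or after crush. The median log2 change of these 8 genes was 0.91 in SOD1 gastrocnemius, 0.03 in SOD1 triceps and 0.36 after crush. The summed linear signal of the 10 macrophage genes with a probe set was 1469.8 to 2225 in SOD1 and 885 to 1381 in crushed gastrocnemius, against 788 to 991 in NTg gastrocnemius. In triceps it was 1019 to 1975 in SOD1 and 1016 to 1579 in NTg mice. Their part in the Sat1 change was not tested. The 4 tested genes of denervated muscle also rose in SOD1 gastrocnemius, among them Chrna1 (log2 change 3.54, adjusted p = 0.00846) and Myog (3.24, adjusted p = 0.00634), and none was called in triceps or after crush. Their part in the Odc1 and Smox changes was not tested. In whole muscle, fewer cells of a type and less RNA per cell cannot be told apart.

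Oaz1, antizyme, had nearly one level in all groups. Its probe set 1436292_a_at had 10.94, 10.94, 10.96 and 11.05 in SOD1 gastrocnemius, 10.76, 11.18, 10.99 and 11.07 in crushed gastrocnemius, and 11.06, 10.94, 11.03 and 10.95 in NTg gastrocnemius. In triceps it had 11.11, 11.12, 10.86 and 11.02 in SOD1 mice and 11.11, 11.13, 11.05 and 11.07 in NTg mice. The groups overlapped in each comparison. The log2 change was -0.02 in SOD1 gastrocnemius (interval -0.24 to 0.19), -0.06 in SOD1 triceps (interval -0.28 to 0.15) and 0.01 after crush (interval -0.21 to 0.22), with adjusted p of 0.912, 0.776 and 0.981. The sign of these small differences turned under another scaling. A further probe set that the annotation pairs with both Oaz1 and its pseudogene was not counted as a member, and none of its changes in these comparisons was called.

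Between SOD1 and crushed gastrocnemius limma called no member, and no other probe set (0% of all tested, with 12.5% at an unadjusted p under 0.05). The log2 changes of SOD1 against crush were 0.61, 0.48 and 0.35 for the Odc1 probe sets in the order given above, -0.28 for Smox, 0.37 for Sat1 and -0.03 for Oaz1. Their intervals were wide: 0.05 to 1.16 for 1437711_x_at and -1.05 to 0.50 for Smox. Without crush replicate 4, 2 Odc1 probe sets were called, 1437711_x_at with a change of 1.0 (adjusted p = 0.00317) and 1438761_a_at with 0.85 (adjusted p = 0.0207), while Smox had -0.54 (adjusted p = 0.390). The comparisons of SOD1 and of crush with NTg gastrocnemius share their NTg arrays.

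The effect of the transgene in gastrocnemius minus that in triceps was not called for any member (0% of all tested, with 9.44% at an unadjusted p under 0.05). The difference was 0.02 for 1437711_x_at, -0.32 for 1438761_a_at and 0.07 for 1427364_a_at, with the widest interval, -1.15 to 0.50, for 1438761_a_at. It was -0.87 for Smox (interval -1.97 to 0.22, adjusted p = 0.621), 0.61 for Sat1 (interval 0.07 to 1.15, adjusted p = 0.494) and 0.04 for Oaz1. Gastrocnemius and triceps were also compared directly. These muscles differed in slow-fibre markers. The summed linear signal of 6 such genes was 6640 to 21098 in gastrocnemius and 164 to 1299 in triceps of NTg mice. In SOD1 mice it was 11072 to 21670 and 195 to 2966. The part of fibre type in the differences between muscles was not tested. In SOD1 mice Smox was lower in gastrocnemius with a log2 change of -1.22 (adjusted p = 0.0611) and Sat1 had 0.59 (adjusted p = 0.0673), so 0 of 6 passed, against 4.84% of all tested. In NTg mice the changes were -0.35 for Smox and -0.02 for Sat1, and 0 of 6 passed, against 1.71%. Without crush replicate 4 in the shared estimate of spread, both passed in SOD1 mice (adjusted p = 0.0390 for Smox and 0.0285 for Sat1), with the same changes. Each stayed uncalled in 6 of 9 omissions of 1 array (adjusted p up to 0.191 for Smox and 0.240 for Sat1).

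Ordered by group mean, the Odc1 probe sets had both SOD1 groups highest, crushed gastrocnemius next and both NTg groups lowest. For 1438761_a_at the means were 9.54 in SOD1 triceps, 9.30 in SOD1 gastrocnemius, 8.82 in crushed gastrocnemius, 8.07 in NTg gastrocnemius and 7.98 in NTg triceps, and the arrays of neighbouring groups overlapped except between crushed and NTg gastrocnemius. Smox means were lower in the SOD1 and crushed groups than in both NTg groups, but their order was not the reverse of that of Odc1. They were 7.23 in SOD1 gastrocnemius, 7.50 in crushed gastrocnemius, 8.45 in SOD1 triceps, 8.85 in NTg gastrocnemius and 9.20 in NTg triceps, and each neighbouring pair overlapped. Sat1 was highest in SOD1 gastrocnemius at 7.35, and its other group means lay between 6.62 and 6.98. The Oaz1 means lay between 10.97 and 11.09.

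Other genes of the pathway were taken from a list of 39, of which 20 had a probe set and 17 were tested. In SOD1 gastrocnemius 2 were higher and 3 lower, against 5.97% and 6.02% of all tested probe sets. The median log2 change of the 17 was -0.05, beside -0.0015 over all tested. None was called in SOD1 triceps, after crush or between SOD1 and crush. No probe set was called in any comparison for ornithine supply (1 gene tested), spermidine synthesis (1 gene) or hypusine (3 genes), the spermidine-derived residue of a translation factor.

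Both higher genes belong to polyamine transport, of which 5 were tested, with a median log2 change of 0.19 in SOD1 gastrocnemius. Atp13a2, Slc3a2 and Cav1 were not called. Their means were 6.49, 6.81 and 9.55 in SOD1 gastrocnemius, against 6.82, 6.86 and 9.36 in NTg gastrocnemius. Atp13a3, a transport ATPase that is known to take up polyamines in mammalian cells, had 8.50, 9.51, 9.85 and 10.18 in SOD1 gastrocnemius, 6.88, 6.89, 7.37 and 10.50 in crushed gastrocnemius, and 6.46, 6.12, 6.26 and 6.43 in NTg gastrocnemius (1434513_at). In triceps the values were 8.11, 8.43, 8.25 and 10.23 in SOD1 mice and 6.67, 6.39, 6.74 and 6.85 in NTg mice. All SOD1 arrays and crush replicate 4 were high, and crush replicates 1 to 3 lay above the NTg arrays of gastrocnemius by less. The log2 change was 3.19 in SOD1 gastrocnemius (SE 0.59, adjusted p = 0.00585), 2.09 in SOD1 triceps (adjusted p = 0.143) and 1.59 after crush (adjusted p = 0.131). Without crush replicate 4 the crush change was 0.73 (adjusted p = 0.299), and the triceps change, at the same size, was called (adjusted p = 0.00372). In 8 of 9 omissions the triceps change was not called (adjusted p up to 0.501). Another probe set, 1442145_at, rose by 1.92 in SOD1 gastrocnemius (adjusted p = 0.0299), and there crush replicate 2, at 5.16, lay below all NTg arrays of gastrocnemius. Its means in NTg gastrocnemius and triceps, 5.46 and 4.87, lay under the filter's limit of 5.88. It passed the filter only through the groups where it was higher, so its call is weak support for the other probe set. Gpc1, glypican 1, a heparan sulphate proteoglycan with a part in polyamine uptake, had 9.08, 9.41, 9.39 and 9.47 in SOD1 gastrocnemius, 8.74, 8.91, 8.86 and 9.08 in crushed gastrocnemius, and 8.74, 8.46, 8.38 and 8.58 in NTg gastrocnemius. It rose by 0.80 in SOD1 gastrocnemius (SE 0.17, adjusted p = 0.00760), and its log2 change was 0.54 in SOD1 triceps and 0.35 after crush.

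The 3 lower genes, Mtap, Apip and Adi1, all act in the salvage of methylthioadenosine, the by-product of spermidine and spermine synthesis, back to methionine. With S-adenosylmethionine supply, 5 genes of this group were tested. Mri1, the isomerase that acts between Mtap and Apip, had 6.40 ± 0.20 (SD, n = 4) in SOD1 and 6.46 ± 0.11 in NTg gastrocnemius and was not called (log2 change -0.05, adjusted p = 0.846). Mtap, which cleaves methylthioadenosine, had 6.86, 6.51, 6.78 and 6.16 in SOD1 gastrocnemius, against 7.16, 7.18, 7.13 and 7.17 in NTg gastrocnemius (log2 change -0.59, SE 0.18, adjusted p = 0.0372). Apip, a dehydratase of this path, had 7.71, 7.42, 7.26 and 7.08 in SOD1 gastrocnemius, against 7.96, 8.17, 7.96 and 7.73 in NTg gastrocnemius (log2 change -0.59, SE 0.15, adjusted p = 0.0210). Adi1, a dioxygenase near its end, had 8.57, 8.18, 7.87 and 7.37 in SOD1 gastrocnemius, against 8.70, 8.89, 8.58 and 8.91 in NTg gastrocnemius (1438758_at, log2 change -0.78, SE 0.22, adjusted p = 0.0315). At the probe sets of Mtap, Apip and Adi1 with array values above, SOD1 replicate 4 was the lowest array and no SOD1 array reached the NTg range. The other Adi1 probe sets, 1438759_x_at and 1449076_x_at, had changes of -0.65 and -0.86 and were called too. By 1449076_x_at the lowest SOD1 gastrocnemius was replicate 2, at 6.06, with replicate 4 at 6.12. In SOD1 triceps the log2 changes were -0.28 for Mtap, -0.49 for Apip and -0.37 for Adi1, after crush they were -0.28, -0.26 and -0.50, and none of these was called. Without SOD1 replicate 4 the gastrocnemius changes were -0.45 for Mtap, -0.50 for Apip and -0.57 for Adi1, and none was called (adjusted p = 0.153, 0.0916 and 0.136).

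Each of these calls was lost without further arrays as well. Mtap was called only without SOD1 replicate 1 or without crush replicate 4 among the arrays left out in turn, with adjusted p up to 0.153. Apip was not called without SOD1 replicate 3 (adjusted p = 0.0580) or NTg replicate 2 (0.0664). Adi1 was not called without SOD1 replicates 2 or 3 or NTg replicates 1, 2 or 4 (adjusted p = 0.0545 to 0.0831). The calls of Atp13a3 (1434513_at) and Gpc1 held without any single array, while that of 1442145_at was lost in 7 of 9 omissions (adjusted p up to 0.0980). The calls of the other Adi1 probe sets were lost in 6 of 9 omissions each (adjusted p up to 0.180 for 1438759_x_at and 0.0954 for 1449076_x_at), and that of 1438759_x_at also with no filter (0.0509) and under quantile normalization (0.0539). Between the muscles, Mtap was lower in gastrocnemius than in triceps in SOD1 mice (-0.73, adjusted p = 0.0288), as was 1449076_x_at of Adi1 (-0.92, adjusted p = 0.0361). In NTg mice Mtap was also lower in gastrocnemius (mean 7.16) than in triceps (7.58), without overlap of the arrays but without a call. The NTg means of 1449076_x_at were 7.14 and 7.26. One probe set of Oaz2, another antizyme, 1426764_at, was higher in gastrocnemius than in triceps in NTg mice (0.92, adjusted p = 0.0320), and its brighter probe set was not called. These calls between muscles were not firm: Mtap kept its call in 5 of 9 omissions (adjusted p up to 0.127), Adi1 in 3 of 9 (up to 0.161) and Oaz2 in 2 of 9 (up to 0.153). With the compared arrays alone all 3 were lost (adjusted p = 0.120, 0.124 and 0.0617), and with the 75th percentile subtracted that of Adi1 was lost (0.0502).

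**Figure D4:**
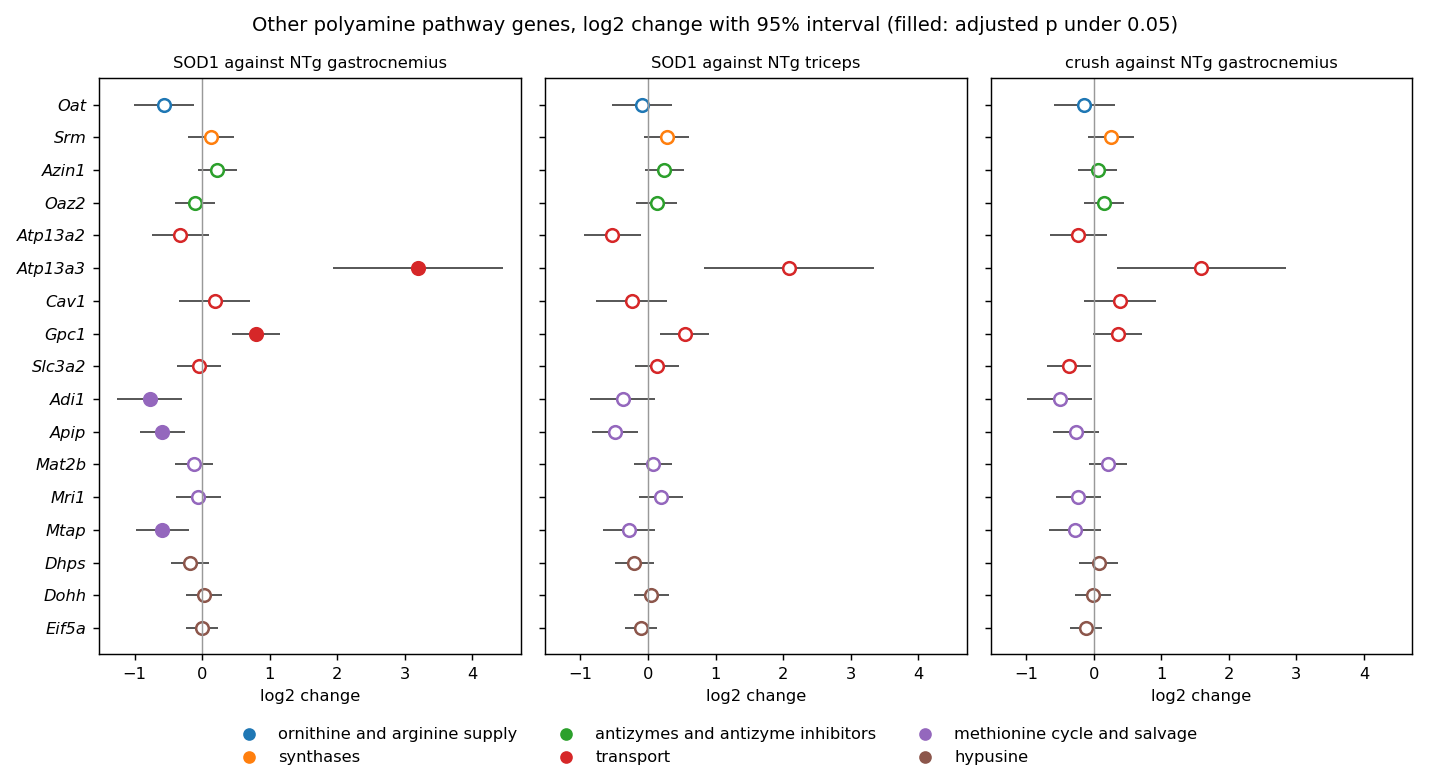
Log2 change with its 95% interval for the 17 tested pathway genes outside the members (rows, coloured by role) in SOD1 against NTg gastrocnemius, SOD1 against NTg triceps and crush against NTg gastrocnemius (panels), filled where the adjusted p was under 0.05. Atp13a3 lies farthest right in each panel, at 3.19, 2.09 and 1.59, and the filled points on the left are Adi1, Apip and Mtap in SOD1 gastrocnemius.

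**Figure D5:**
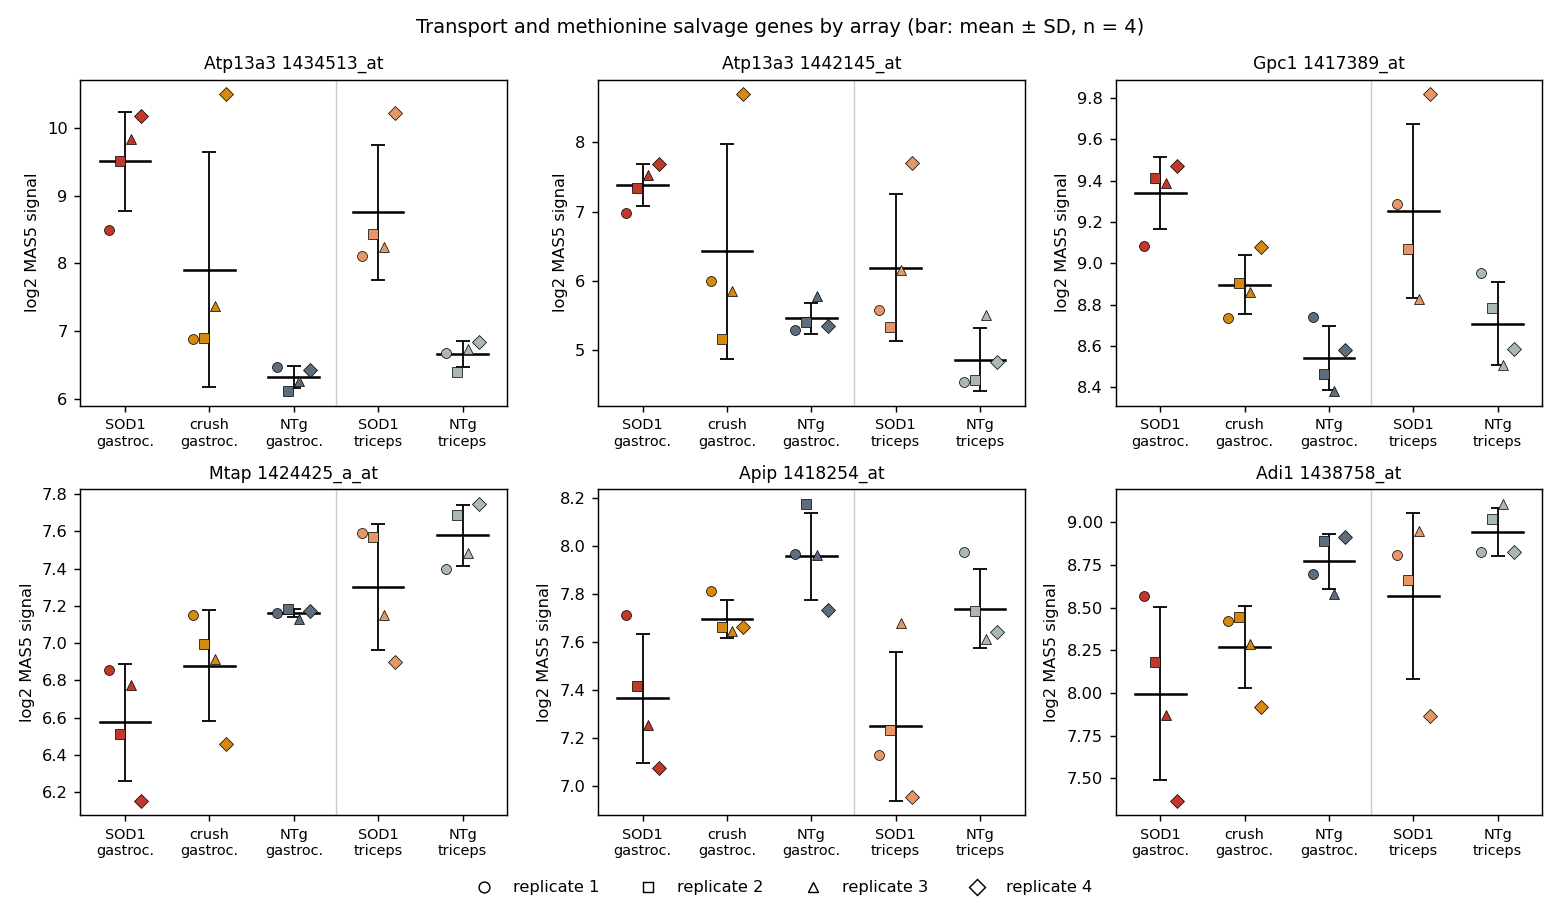
Log2 MAS5 signal (vertical axis, a scale for each panel) on each array of the pathway genes called in SOD1 gastrocnemius, by group, with the replicate as the symbol and bars for mean ± SD (n = 4). Atp13a3 is at 10.50 in crush replicate 4 and at 6.88 to 7.37 in the other crushed muscles.

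The genes whose signals ran most like a member's over the 20 arrays were found by Pearson's r, as a description: the arrays share muscles, groups and the denervated state, so r carries no test. Odc1 (1437711_x_at, against 6889 probe sets) was most like Ankrd10 (r = 0.947), Cdkn1a, a cell cycle inhibitor (0.944), Tgfbr1, a TGF-beta receptor (0.938), Cd82, a tetraspanin (0.935), and Pstpip2 (0.934). It ran most against Ndufb6, a subunit of respiratory complex I (-0.905), 0610012G03Rik (-0.886) and Lgalsl (-0.876). Smox (against 6891 probe sets) was most like Gpt2, a mitochondrial alanine aminotransferase (0.974), Aimp2, a scaffold of tRNA synthetases (0.967), Ubxn2a (0.966), Lrig1 (0.946) and Atp1b2, a sodium pump subunit (0.942), and it ran most against Aopep (-0.920), Btf3l4 (-0.919) and Atxn10 (-0.917). Without crush replicate 4 these values were at least 0.924 in size for the genes most like Odc1 and 0.933 for those most like Smox. Over deviations from the group means they were 0.816 to 0.887 for Odc1 and 0.814 to 0.952 for Smox.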

How the data were processed

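The files held 1 table of log2 signal for 20 arrays, deposited by the authors. Per the labels' protocols, Trizol-extracted RNA was cleaned on columns, and 4 ug was labelled with biotin. The submitters' processing notes name MAS5 for the signals; neither its version nor a target level or filter is stated there. No scanner files, detection calls or scan dates were used, so no batch could be tested. Groups were taken from the titles. The description of NTg triceps replicate 4 names gastrocnemius, while its title, source name and tissue say triceps, which was followed. The titles call the replicates biological, but no label ties a number to a mouse or says whether an array holds 1 mouse, and p-values measure the spread between these samples.

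The deposited values were used without further scaling. Probe sets with a mean at or under 5.88, the lowest 30%, were left out. On the 7523 others limma 3.58.1 (R 4.3.3) fitted 5 group means to all arrays, with trended eBayes and 15 residual degrees of freedom. The two-sided p-values of each of 7 comparisons were adjusted (Benjamini-Hochberg) across all these probe sets and called under 0.05. The number of arrays, 4 in each group, limits the precision. The code was tested on simulated data. By the platform annotation 9874 probe sets carry 1 symbol, 387 carry several and 487 carry none; RefSeq gene IDs were matched for 9862 of the 9874. A pathway gene was represented by its brightest probe set; each gene called in a comparison was named, with its other probe sets where they differed. Likeness named the 5 genes of highest and the 3 of lowest r. The members and lists were chosen with earlier results of these data known.

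Same-numbered arrays were checked for pairing: in no pair of groups did all 4 correlations of deviations from group means exceed 0.1 (range -0.25 to 0.62), so numbers were not taken as pairs. Between SOD1 gastrocnemius and triceps they were 0.57, -0.10, -0.04 and 0.62, and between the NTg muscles 3 of 4 exceeded 0.1. Between SOD1 triceps and crushed gastrocnemius they reached 0.48. The check cannot settle whether both muscles came from the same mice, and comparisons between muscles took the arrays as independent. Besides macrophage and denervated muscle, markers of muscle fibre, slow fibre, satellite cell, fibroblast, endothelium, Schwann cell, adipocyte and erythroid cells were summed and tested, and in SOD1 against NTg none of those tested was called in either muscle (no erythroid gene was tested). After crush 1 of 3 Schwann cell genes was lower. Alternatives were quantile normalization, 75th percentile subtraction, no filter, a filter at 60%, the compared arrays alone, a replicate block, no trend, a robust prior, array weights and leaving out each array. Promoter windows came from RefSeq (GRCm38.p6), without a genome. Figures were drawn with matplotlib 3.10.9.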

Additional observations from a re-analysis of the deposited data

Results flagged for a closer look

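In groups of 4 arrays, 75 combinations of probe set and group were examined for an array far from the other 3 (a gap to the nearest above Dixon's critical share of the group's range), and 4 were found; chance gives about 1 in 20. Odc1 1438761_a_at had a log2 signal of 9.93 in crush replicate 4, with the next array at 8.59. Atp13a3 1434513_at had 10.50 in the same array, with the next at 7.37, and the same probe set had 10.23 in SOD1 triceps replicate 4, with the next at 8.43. Apip 1418254_at had 7.81 in crush replicate 1, with the next at 7.66. The array of crush replicate 4 also had the highest Chrna1 signal of all arrays, 11.34.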

How the results depend on the processing

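The fall of Smox and the rises of Odc1 and Sat1 in SOD1 gastrocnemius kept their direction under each alternative and each omission run in which they were tested, but all 5 calls ended without SOD1 replicate 4. Leaving out 1 array gave 0 to 5 called member probe sets in SOD1 gastrocnemius, 0 to 3 in SOD1 triceps, 0 to 1 after crush, 0 to 2 for SOD1 against crush and 0 to 2 for gastrocnemius against triceps in SOD1 mice. With the lowest 60% left out, 3 were called in SOD1 gastrocnemius, because Odc1 1427364_a_at and Sat1 fell under the filter. With no filter and with a robust prior, 0 were called after crush (Smox adjusted p = 0.0517 and 0.0539). With the compared arrays alone, a replicate block or array weights, 2 were called in SOD1 triceps. The replicate block also gave 1 call for gastrocnemius against triceps in SOD1 mice (Smox) and changed no other member call. With it Odc1 1437711_x_at and Atp13a3 were called in SOD1 triceps (adjusted p = 0.0346 each), and Atp13a3 also after crush (0.0438). Array weights gave 2 member calls for gastrocnemius against triceps in SOD1 mice and 4 for SOD1 against crush. The cause was not tested.

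Values near 0 changed sign. Under quantile normalization those of Oaz1 were 0.0216 and 0.15 for SOD1 in gastrocnemius and triceps, 0.0128 for SOD1 against crush and -0.13 for gastrocnemius minus triceps; after crush it was -0.0015 with the 75th percentile subtracted and -0.0099 with array weights. With arrays left out Oaz1 ran from -0.0529 to 0.0856 after crush, -0.11 to 0.0305 for SOD1 against crush and -0.016 to 0.0722 for gastrocnemius minus triceps. Smox for SOD1 against crush ran from -0.65 to 0.0169. The effect in gastrocnemius minus triceps ran from -0.11 to 0.10 for Odc1 1437711_x_at and from -0.0752 to 0.20 for 1427364_a_at. The count over all probe sets was 178 to 1341 in SOD1 gastrocnemius with arrays left out, and 2512 with array weights, against 902. No scaling moved the median change of all probe sets by over 0.1. MAS5 signals have no floor, so changes of dim probe sets are less certain.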
